A study of Mus musculus with 12 samples.

Results

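Six4, Eya1, Eya2, Eya4, Foxi3, Tbx1, Tcf21 and Msc are 8 regulators of the cranial placodes and the pharyngeal mesoderm, tissues that lie beside the neural crest in the embryonic head and pharyngeal arches. They were taken by gene symbol from a table of 24421 symbols, and all 8 were present and passed the filter on low counts. RNA was sequenced from C57Bl/6 mouse embryos carrying a neural crest-specific Eftud2 alteration, at embryonic day 9.0 (E9.0) and E9.5. At each stage 3 libraries came from heterozygous embryos (Eftud2+/-, the controls) and 3 from homozygous embryos (Eftud2-/-), so that the controls also carry 1 altered copy. The labels give the source as neural crest cells and the tissue as cranial nerve ganglia, while the protocol describes heads kept in RNAlater, and the Cre driver, the somite numbers and the embryos per library are not given in the sources used here. Nothing in the labels says whether the libraries of a group came from separate embryos, so the p-values measure the spread between these libraries, which may be technical.

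Cranial placodes are thickenings of the head ectoderm that give rise to the inner ear, the olfactory epithelium and sensory neurons of the cranial ganglia. Six4 belongs to the sine oculis family of homeodomain proteins, which bind DNA and recruit EYA proteins, which are transcriptional co-activators with a phosphatase domain, and Foxi3 is a forkhead factor of the early placode territory and the pharyngeal arches. Tbx1 is a T-box factor of the pharyngeal endoderm, the core mesoderm of the arches and the otic vesicle, and its loss is linked to DiGeorge syndrome. Tcf21 (capsulin) and Msc (musculin, MyoR) are related basic helix-loop-helix factors of the mesoderm that forms the jaw muscles.

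Tbx1 was the member with the largest genotype difference at E9.5, and no member was called at E9.0. At E9.5 its transcripts were 1.94-fold higher in homozygous than in heterozygous libraries, while at E9.0 its groups overlapped. Tcf21 rose by a fold of 1.46 when the stages were averaged, a call that most left-out libraries ended. The 95% intervals of Six4 lay between −0.12 and 0.14 on the log2 scale at both stages, and Eya4 was the member with lower values in homozygous libraries. Between E9.0 and E9.5, Foxi3 fell and Eya4 rose in both genotypes, and Tbx1 fell in heterozygous libraries. Six4 fell in both genotypes with TMM factors, a call that scaling by total counts ended.

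The libraries held 13914543 to 31172708 counts. Levels are given as CPM, the counts relative to the library size scaled with TMM factors, and 1 count was worth 0.0293 to 0.0751 CPM. Rn45s, a precursor of ribosomal RNA, made up 37.4% of heterozygous E9.0 replicate 1 and 6.05% to 16.2% of each other E9.0 library. In the E9.5 libraries it made up 4.40% to 5.90%, below every E9.0 library. Eftud2, the targeted gene, encodes a GTPase of the spliceosome. Its level was 286 ± 14.6 CPM (SD, n = 3) in heterozygous and 234 ± 1.95 in homozygous libraries at E9.0, and 256 ± 8.43 and 224 ± 2.96 at E9.5. It fell by 0.29 ± 0.05 on the log2 scale at E9.0 (adjusted p = 0.0193, edgeR), a call kept in 6 of 8 alternatives and in 3 of 6 fits without 1 library. At E9.5 the difference was −0.19 ± 0.05 (adjusted p = 0.0906, edgeR), and averaged over the stages it fell by 0.24 ± 0.04 (adjusted p = 0.00215). With total counts in place of TMM factors the E9.0 value was −0.082 and the average −0.14 (adjusted p = 0.751 and 0.620, edgeR). Across the E9.5 libraries the summed markers of neural crest were at 171 to 210.2 CPM, those of cranial ganglion neurons at 70.5 to 82.5, and those of heart muscle (Myl7, Tnnt2, Nppa, Myl3 and Actn2) at 516 to 732. In such bulk samples fewer cells of a type and less RNA per cell cannot be told apart.

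The regions upstream of Tbx1 and Tcf21 are shown because these 2 members were called between the genotypes. The sequences are from RefSeq on GRCm38.p6, on the minus strand, and hold only bases outside annotated exons. RefSeq entries were matched for 5 of the 8 members. The capitals mark the core letters of a T-box site, AGGTGT. The entries are the upstream start of Tbx1 at chr16:18590672-18590921, its downstream start at chr16:18588900-18589149, and the start of Tcf21 at chr10:22820175-22820393.
Tbx1 upstream start: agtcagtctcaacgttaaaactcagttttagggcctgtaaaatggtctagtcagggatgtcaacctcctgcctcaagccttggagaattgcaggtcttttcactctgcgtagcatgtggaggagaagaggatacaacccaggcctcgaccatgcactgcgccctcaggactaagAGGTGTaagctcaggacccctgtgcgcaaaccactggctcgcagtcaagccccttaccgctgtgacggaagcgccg
Tbx1 downstream start: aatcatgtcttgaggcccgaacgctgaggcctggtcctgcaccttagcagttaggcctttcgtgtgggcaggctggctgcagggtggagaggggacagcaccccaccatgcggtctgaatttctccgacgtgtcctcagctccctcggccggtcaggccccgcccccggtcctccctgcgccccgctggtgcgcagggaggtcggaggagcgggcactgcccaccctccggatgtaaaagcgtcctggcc
Tcf21: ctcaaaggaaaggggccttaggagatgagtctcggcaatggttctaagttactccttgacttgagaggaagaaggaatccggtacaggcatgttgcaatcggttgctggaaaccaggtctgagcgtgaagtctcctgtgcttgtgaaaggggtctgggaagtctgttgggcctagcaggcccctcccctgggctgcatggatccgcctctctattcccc
Both strands were searched for AGGTGT, for the forkhead letters TGTTTAC and for the MEF3 letters TCAGGTT, a sequence bound by the sine oculis family. The upstream start of Tbx1 held 1 AGGTGT, and no other match was found in these 3 windows. Of 32851 RefSeq promoter windows of 250 bases, 11.8% held AGGTGT, 3.17% the forkhead letters and 3.49% the MEF3 letters, and in windows of 219 bases the shares were 10.7%, 2.80% and 3.08%. A match is a description of letters only, and counts per gene do not show which Tbx1 start was used.

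Levels were compared between genes as CPM per kilobase of exon, with exon lengths from GENCODE M21 on GRCm38. In heterozygous E9.0 libraries Eya2 stood at 6.38 ± 0.797 CPM per kilobase, Tbx1 at 6.32 ± 1.47, Eya1 at 5.76 ± 0.541 and Six4 at 5.52 ± 0.139 (SD, n = 3). Each of these 4 overlapped its neighbour in the order. Foxi3 followed at 3.56 ± 0.731, Tcf21 at 1.71 ± 0.353, Eya4 at 1.01 ± 0.121 and Msc at 0.434 ± 0.122, and none of these overlapped its neighbour. In homozygous E9.0 libraries the order was Tbx1 (7.37), Eya2 (6.72), Eya1 (6.22), Six4 (5.54), Foxi3 (5.38), Tcf21 (2.39), Eya4 (0.776) and Msc (0.534). There Tbx1 overlapped Eya2, Eya2 overlapped Eya1, and Six4 overlapped Foxi3. In heterozygous E9.5 libraries Tbx1 stood 4th at 3.48 ± 0.247, below Six4 at 4.66 ± 0.155 without overlap. In homozygous E9.5 libraries it stood 2nd at 6.77 ± 0.0866, between Eya2 at 8.0 ± 0.503 and Eya1 at 6.12 ± 0.235. With the length of the longest transcript in place of all exons, Eya1 came first in all 4 groups, so the order among the 4 most abundant members depends on the length used.

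**Figure D1:**
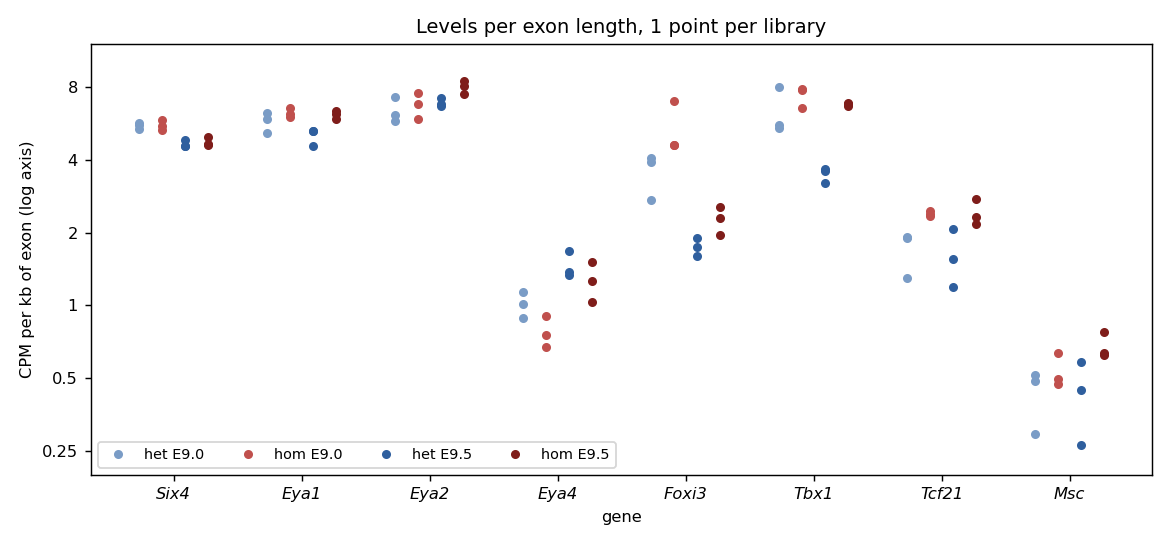
CPM per kilobase of exon (log axis) for the 8 regulators, with 1 point per library and colours for the 4 groups. Msc was lowest in each group, and Tbx1 of the heterozygous E9.5 libraries lay apart from its other 3 groups.

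Six4, on chromosome 12 (GRCm38 chr12:73099609-73113456, minus strand), encodes a DNA-binding partner of the EYA proteins in placodes and muscle precursors. Its levels were 58.3, 60.3 and 61.2 CPM in heterozygous E9.0 replicates 1 to 3 and 63.3, 59.6 and 57.5 in the homozygous ones. At E9.5 they were 52.5, 49.6 and 49.6 CPM in heterozygous and 50.1, 53.7 and 50.1 in homozygous libraries. The genotypes overlapped at both stages, and every E9.5 library was below every E9.0 library. The genotype difference was 0.0034 ± 0.060 (log2 fold change ± SE) at E9.0, with a 95% interval from −0.12 to 0.13. It was 0.021 ± 0.058 at E9.5, with an interval from −0.10 to 0.14.

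Eya1 (chr1:14168954-14310235, minus strand), mutated in branchio-oto-renal syndrome, was measured at 48.5, 46.0 and 40.3 CPM in heterozygous and 50.8, 46.7 and 48.1 in homozygous E9.0 libraries. At E9.5 the levels were 40.8, 35.4 and 41.1 CPM in heterozygous and 48.0, 49.4 and 45.8 in homozygous libraries. The genotypes overlapped at E9.0, while at E9.5 all 3 homozygous libraries were above all 3 heterozygous ones. The E9.5 difference of 0.29 ± 0.08 did not pass the threshold of 0.05 (adjusted p = 0.0680, edgeR). DESeq2 (adjusted p = 0.0262) and edgeR without a filter on low counts (adjusted p = 0.0450) called it, and none of the 6 fits without 1 E9.5 library did. On average the difference was 0.20 ± 0.06 (adjusted p = 0.0621, edgeR). DESeq2 (adjusted p = 0.0279) and edgeR with total counts without Rn45s (adjusted p = 0.0463) called the average. Of the 12 fits without 1 library, 1 called it, that without heterozygous E9.0 replicate 1 (adjusted p = 0.0372, edgeR).

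Eya2 (chr2:165595032-165771727, plus strand) was measured at 21.6, 17.0 and 18.1 CPM in heterozygous and 17.5, 20.04 and 22.2 in homozygous E9.0 libraries. At E9.5 it stood at 20.1, 21.3 and 19.8 CPM in heterozygous and 22.1, 23.9 and 25.1 in homozygous libraries, which did not overlap. The E9.5 difference was 0.22 ± 0.10 (adjusted p = 0.336, edgeR). Eya4 (chr10:23102963-23350786, minus strand), a deafness gene of the family, had values in the other direction. It was measured at 9.54, 10.7 and 8.38 CPM in heterozygous and 8.49, 6.35 and 7.09 in homozygous E9.0 libraries, and at 13.0, 15.8 and 12.5 against 9.78, 14.3 and 11.9 at E9.5. The genotypes overlapped at both stages, with differences of −0.39 ± 0.17 and −0.20 ± 0.14 (adjusted p = 0.330 and 0.614, edgeR). The E9.5 value was −0.083 without heterozygous replicate 2, −0.068 without homozygous replicate 1 and −0.34 without homozygous replicate 2. How reads shared by the related Eya genes were counted is not given in the sources used here.

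Foxi3 (chr6:70956531-70961066, plus strand) was measured at 4.99, 3.48 and 5.20 CPM in heterozygous and 5.86, 5.90 and 8.91 in homozygous E9.0 libraries. At E9.5 the values were 2.04, 2.43 and 2.24 CPM in heterozygous and 2.93, 3.25 and 2.51 in homozygous libraries. The homozygous libraries were higher without overlap at both stages, and homozygous E9.0 replicate 3 stood well above the others. The differences were 0.59 ± 0.20 at E9.0, 0.38 ± 0.20 at E9.5 and 0.49 ± 0.14 on average (adjusted p = 0.210, 0.456 and 0.0790, edgeR), none past the threshold. Leaving out homozygous E9.0 replicate 3 gave 0.37 for the earlier stage. The average was called by DESeq2 (adjusted p = 0.0451) and by edgeR with total counts in place of TMM factors (adjusted p = 0.0339).

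Tbx1 (chr16:18580979-18590671, minus strand) was measured at 28.2, 19.6 and 18.9 CPM in heterozygous and 27.3, 23.0 and 27.5 in homozygous E9.0 libraries. At E9.5 it stood at 12.9, 11.3 and 12.6 CPM in heterozygous libraries and at 23.5, 23.8 and 24.1 in homozygous ones. The E9.0 groups overlapped through heterozygous replicate 1, while the lowest E9.5 homozygous library was above the highest heterozygous one by more than the whole spread of either group. At E9.0 the difference was 0.23 ± 0.13 (adjusted p = 0.441, edgeR). It was 0.42 without replicate 1, the library rich in Rn45s, 0.15 without replicate 2 and 0.12 without replicate 3 (adjusted p = 0.0767, 0.758 and 0.727, edgeR). At E9.5 Tbx1 rose by 0.96 ± 0.12 (adjusted p = 0.00092, edgeR), the 15th smallest p of 14810 genes. The call held in all 8 alternatives and in all 6 fits without 1 E9.5 library, with differences of 0.90 to 1.0. The exact two-sided permutation test of 3 libraries against 3 cannot give a p below 0.1.

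The genotype difference of Tbx1 was larger at E9.5 than at E9.0 by 0.73 ± 0.18, which did not pass the threshold (adjusted p = 0.195, edgeR). DESeq2 called this interaction (adjusted p = 0.0354), and the other 6 alternatives did not. Of all genes 0.0675% were called for the interaction and 0 of the 8 members were, with 1 member (Tbx1) at an unadjusted p under 0.05, beside 8.6% of all genes.

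Tcf21 (chr10:22817281-22820174, minus strand) was measured at 4.48, 4.50 and 3.05 CPM in heterozygous and 5.48, 5.61 and 5.74 in homozygous E9.0 libraries. At E9.5 the levels were 4.85, 2.79 and 3.66 CPM in heterozygous and 5.09, 5.43 and 6.45 in homozygous libraries. All homozygous libraries were above the heterozygous ones of their stage, and the heterozygous E9.5 libraries were spread widely. The differences were 0.51 ± 0.21 at E9.0 and 0.59 ± 0.19 at E9.5 (adjusted p = 0.310 and 0.142, edgeR). The E9.0 value was 0.32 without heterozygous replicate 3 (adjusted p = 0.548, edgeR), and the E9.5 value was 0.82 without heterozygous replicate 1, which was past the threshold (adjusted p = 0.0401). On average Tcf21 rose by 0.55 ± 0.14 (adjusted p = 0.0454, edgeR). The average stayed past the threshold in 2 of the 12 fits without 1 library, those without heterozygous replicate 1 of either stage, and the adjusted p ranged from 0.0128 to 0.112 over the 12. With the replicate number as a block the adjusted p was 0.0613.

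Msc (chr1:14753346-14755992, minus strand), thought to act in part redundantly with Tcf21, was the least abundant member, with 14 to 53 counts in a library. It was measured at 1.32, 0.750 and 1.25 CPM in heterozygous and 1.20, 1.26 and 1.62 in homozygous E9.0 libraries, and at 1.49, 0.675 and 1.14 against 1.62, 1.60 and 1.99 at E9.5. The groups overlapped at E9.0 and did not at E9.5, where the difference was 0.65 ± 0.27 (adjusted p = 0.290, edgeR). At E9.0 the difference was 0.31 ± 0.33 (adjusted p = 0.731, edgeR), and 0.088 without heterozygous replicate 2. At E9.5, leaving out 1 library gave 0.39 (without heterozygous replicate 2) to 0.95 (without heterozygous replicate 1). A 539-base stretch of Msc exon also lies in an exon of the antisense gene Gm9947, which is not a row of the count table. The strand setting is not given, so reads of these 2 genes cannot be told apart there.

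**Figure D2:**
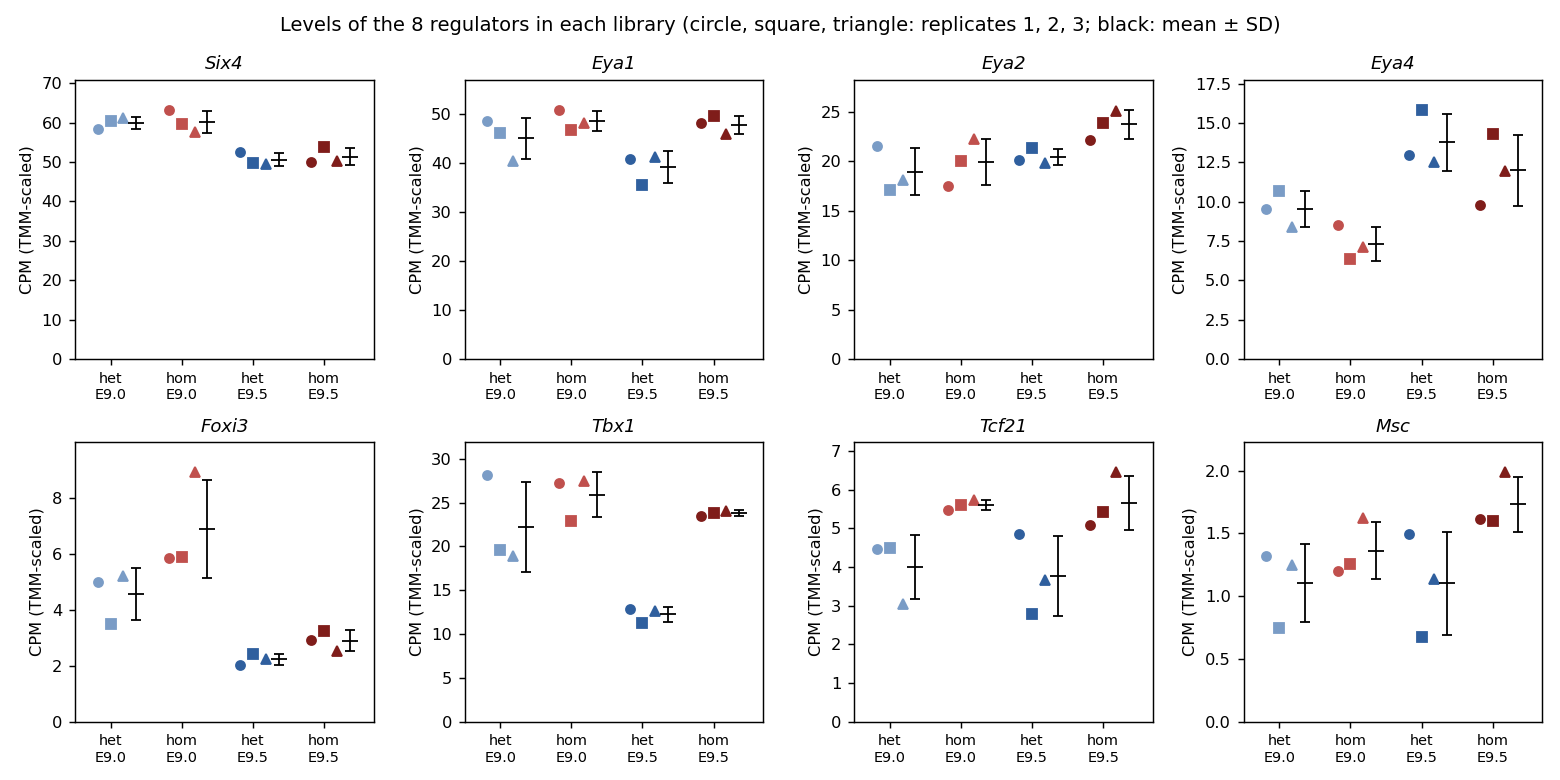
TMM-scaled CPM of each regulator in the 12 libraries, by genotype and stage, with the mean ± SD of 3 libraries in black. The Tbx1 points of heterozygous E9.5 libraries lie between 11.3 and 12.9 CPM and those of homozygous ones between 23.5 and 24.1.

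Across the members, 0 of 8 were called at E9.0, where 0.587% of all 14810 genes tested were called by edgeR, and 3 of 8 had an unadjusted p under 0.05, beside 13.3%. DESeq2 and limma-voom also called 0 at E9.0. At E9.5 edgeR called 1 of 8 (Tbx1, higher), beside 1.89% of all genes in either direction and 1.19% higher. For the average of the stages it called 2 of 8 (Tbx1 and Tcf21, both higher), beside 2.96% in either direction and 1.82% higher. Limma-voom called Tbx1 at E9.5, and Tbx1 and Tcf21 on average. DESeq2 called Eya1 as well at E9.5 (adjusted p = 0.0262), and Eya1 and Foxi3 as well on average (adjusted p = 0.0279 and 0.0451). It called 448 genes at E9.5 and 649 on average. At an unadjusted p under 0.05 in edgeR there were 5 of 8 members at E9.5 and 6 of 8 on average, against 13.4% and 16.9% of all genes. The difference was above 0 for 7 of 8 members at each stage, Eya4 being the exception, against 49% and 49.2% of all genes. The median over the members was 0.17 at E9.0, beside −0.0043 for all genes, and 0.33 at E9.5, beside −0.0026. At E9.0 the homozygous libraries were higher without overlap for 2 members (Foxi3 and Tcf21), as for 9.07% of all genes, and at E9.5 for 6 (Eya1, Eya2, Foxi3, Tbx1, Tcf21 and Msc), as for 11.4%. Both stages did so for Foxi3 and Tcf21, and for 2.03% of all genes.

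The exact permutation test over both stages, with genotype permuted within a stage in 400 arrangements, can give no p below 0.005. It gave that p for Foxi3 and Tcf21, 0.015 for Eya1, 0.02 for Tbx1, 0.045 for Eya4 and Msc, 0.09 for Eya2 and 0.705 for Six4, unadjusted over 8 exact tests.

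**Figure D3:**
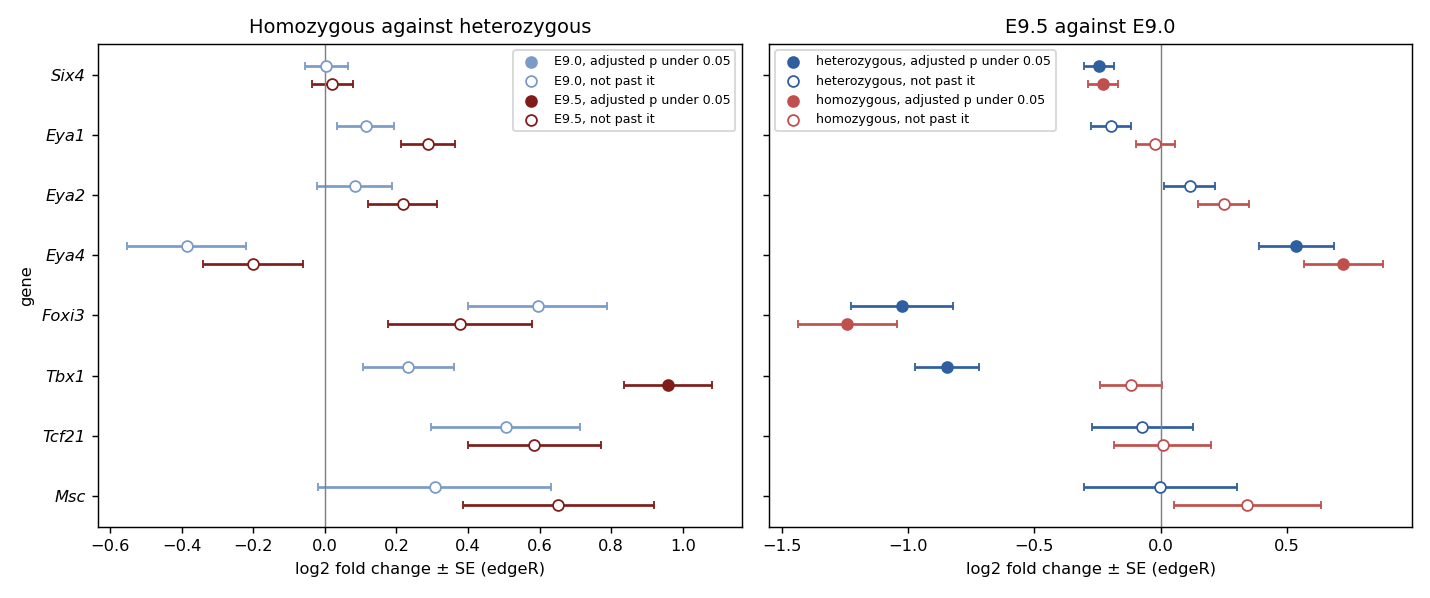
Log2 fold change ± SE from edgeR for each regulator, homozygous against heterozygous libraries at each stage (left) and E9.5 against E9.0 in each genotype (right), with filled points for an adjusted p under 0.05. Tbx1 at E9.5 is the filled point on the left, at 0.96, and Foxi3 lies farthest to the left of 0 on the right.

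Between the stages, Foxi3 had the largest fall among the members. It fell by 1.02 ± 0.20 in heterozygous and by 1.24 ± 0.19 in homozygous libraries (adjusted p = 0.00101 and 0.000134, edgeR), without overlap in either genotype. Tbx1 fell by 0.85 ± 0.13 in heterozygous libraries (adjusted p = 0.000111, edgeR), from 22.2 ± 5.17 to 12.3 ± 0.868 CPM (SD, n = 3). In homozygous libraries its levels were 25.9 ± 2.55 and 23.8 ± 0.304 CPM, a difference of −0.12 ± 0.12 (adjusted p = 0.486, edgeR). With total counts in place of TMM factors the falls in heterozygous libraries were smaller, at −0.65 for Foxi3 and −0.44 for Tbx1 (adjusted p = 0.0165 and 0.0105, edgeR). That these stage differences are unequal is the interaction above, which was not past the threshold.

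Eya4 rose between the stages by 0.54 ± 0.15 in heterozygous and 0.72 ± 0.16 in homozygous libraries (adjusted p = 0.00996 and 0.00200, edgeR), and without heterozygous E9.0 replicate 3 the first was 0.44 (adjusted p = 0.0558). Six4 fell by 0.25 ± 0.06 and 0.23 ± 0.06 (adjusted p = 0.00408 and 0.00699, edgeR). With total counts Eya4 in heterozygous libraries was 0.91, and Six4 was 0.12 and −0.058 (adjusted p = 0.480 and 0.815, edgeR), where the median of all genes was 0.38 and 0.18. With total counts without Rn45s Six4 was −0.15 and −0.16 (adjusted p = 0.0737 and 0.0574, edgeR), so both its calls depended on the scaling. EdgeR called 4 of 8 members in heterozygous libraries (Six4, Foxi3 and Tbx1 lower, Eya4 higher) beside 35.2% of all genes (16% lower and 19.2% higher). It called 3 of 8 in homozygous libraries (Six4 and Foxi3 lower, Eya4 higher) beside 35.4% (15.8% lower and 19.6% higher). Eya1, Eya2, Tcf21 and Msc did not pass the threshold in either genotype with this fit. Eya2 was called higher with total counts in heterozygous (0.50, adjusted p = 0.00617, edgeR) and homozygous libraries (0.42, adjusted p = 0.0318). In homozygous libraries it was also called with total counts without Rn45s and with no filter (adjusted p = 0.0200 and 0.0316, edgeR). RLE factors called Eya1 lower in heterozygous libraries (−0.21, adjusted p = 0.0489, edgeR). So did 1 of the 6 fits without 1 library, that without heterozygous E9.0 replicate 3 (−0.27, adjusted p = 0.0168, edgeR). Eya2 in homozygous libraries was called in 2 of 6 such fits. These were without homozygous E9.0 replicate 3 (0.33, adjusted p = 0.0284, edgeR) and homozygous E9.5 replicate 1 (0.30, adjusted p = 0.0485, edgeR). Erythroid markers (Hbb-y, Hbb-bh1, Hba-x and Alas2) summed to 529.9 to 1156 CPM across the E9.0 libraries and 2763 to 5155 at E9.5. Heart muscle markers went from a range of 15.2 to 81.2 CPM at E9.0 to one of 516 to 732 at E9.5, and cranial ganglion neuron markers from a range of 32.4 to 39.9 to one of 70.5 to 82.5. The part of these tissues in the stage differences was not tested. The Rn45s share was lower in every E9.5 library than in every E9.0 library. TMM factors were 0.664 to 1.05 at E9.0 and 1.09 to 1.11 at E9.5. Stage and this difference between the libraries cannot be told apart.

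Further genes of the same networks were taken from 2 lists, whose counts and medians cover the genes reported here. Of 17 genes of the placode list, which holds sine oculis, EYA and DACH genes, 16 were tested. At E9.0 9 were above 0, with a median of 0.035, and at E9.5 13 were above 0, with a median of 0.099, beside −0.0043 and −0.0026 for all genes, of which 49% and 49.2% were above 0. EdgeR, DESeq2 and limma-voom called 0 of these 16 at either stage, where edgeR called 0.587% and 1.89% of all genes. At an unadjusted p under 0.05 in edgeR there were 1 of 16 at E9.0, beside 13.3% of all genes, and 5 of 16 at E9.5, beside 13.4%.

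Of 17 genes reported of the pharyngeal and cranial mesoderm list, 15 were tested. At E9.0 13 were above 0, beside 49% of all genes, with a median of 0.19, beside −0.0043. EdgeR, DESeq2 and limma-voom called 0 of the 15 at E9.0, where edgeR called 0.587% of all genes, and 3 had an unadjusted p under 0.05 in edgeR, beside 13.3%. At E9.5 10 were above 0, beside 49.2% of all genes, with a median of 0.32, beside −0.0026, and 7 had an unadjusted p under 0.05 in edgeR, beside 13.4%. EdgeR called 3 of the 15 higher, beside 1.19% of all genes. Nkx2-5, a cardiac and pharyngeal homeodomain factor, stood at 11.9, 15.2 and 15.5 CPM in heterozygous and 19.4, 23.5 and 22.4 in homozygous E9.5 libraries, which did not overlap. It rose by 0.62 ± 0.15, Mef2c, a muscle transcription factor, by 0.35 ± 0.08, and Tlx1, a homeodomain factor, by 0.61 ± 0.15 (adjusted p = 0.0444, 0.0401 and 0.0459, edgeR). In the 6 fits without 1 library the differences were 0.51 to 0.70 for Nkx2-5, 0.33 to 0.38 for Mef2c and 0.51 to 0.70 for Tlx1, and none of them was past the threshold (adjusted p = 0.0541 to 0.181, 0.0852 to 0.138 and 0.0542 to 0.171, edgeR). DESeq2 and limma-voom called these 3 and Foxc2, a forkhead factor of head mesoderm. Of the 8 alternatives, 7 called Nkx2-5, 6 called Mef2c and 5 called Tlx1 at E9.5. At E9.0 Mef2c was below 0, at −0.12 ± 0.09, and Nkx2-5 and Tlx1 were above 0, at 0.46 and 0.43 (adjusted p = 0.581, 0.309 and 0.277, edgeR). The average of Mef2c was 0.12 ± 0.06 (adjusted p = 0.347, edgeR). On average over the stages edgeR called 3 of the 15 higher, namely Isl1, Nkx2-5 and Tlx1, beside 1.82% of all genes. Isl1, a factor of cardiac progenitors and sensory neurons, rose by 0.35 ± 0.07 (adjusted p = 0.0106, edgeR). Over the 12 fits without 1 library the Isl1 call was kept in 12 (0.31 to 0.39, adjusted p = 0.00887 to 0.0390, edgeR), that of Tlx1 in 10 and that of Nkx2-5 in 7 (adjusted p up to 0.0534 and 0.0760).

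**Figure D4:**
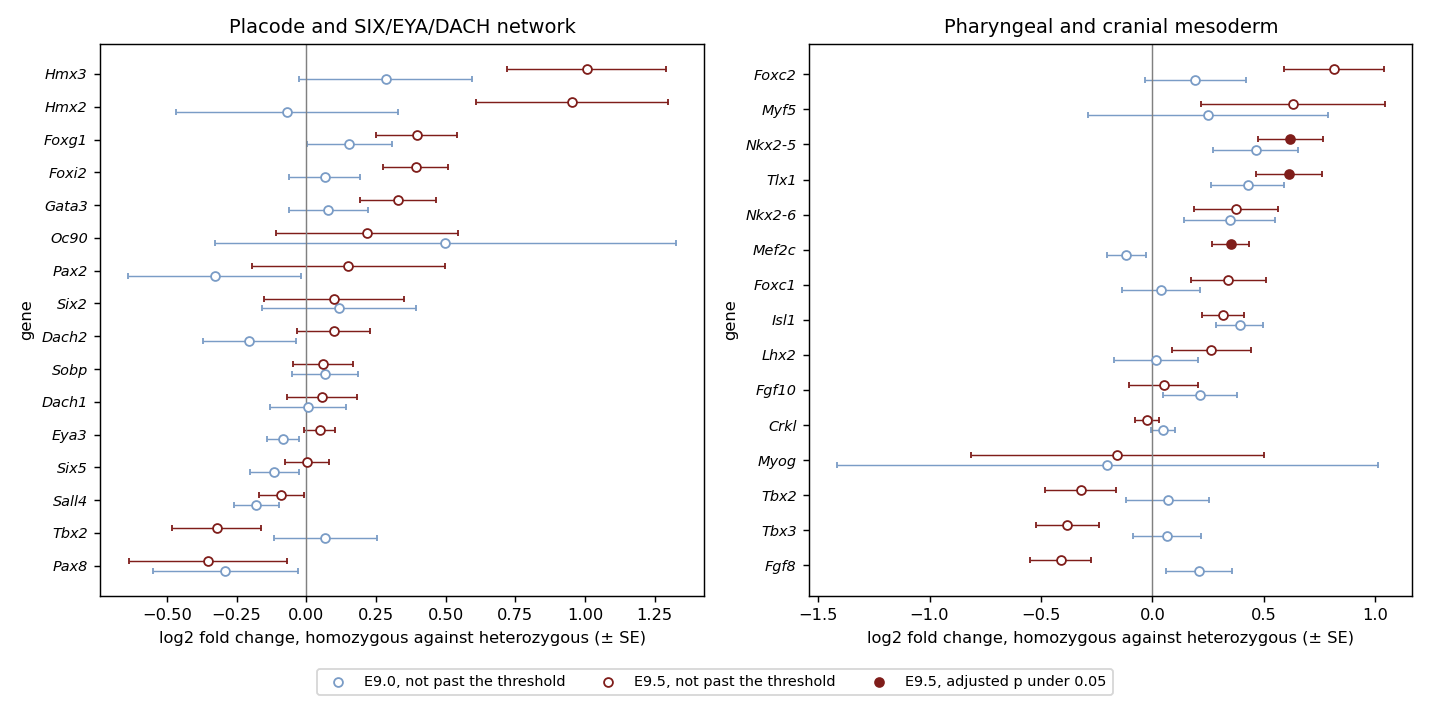
Log2 fold change ± SE (edgeR) of homozygous against heterozygous libraries for the tested genes reported of both lists, with E9.0 in blue and E9.5 in dark red, and filled points for an adjusted p under 0.05. Nkx2-5, Mef2c and Tlx1 are filled in the right panel, and the left panel has no filled point.

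Markers of other cell types moved with genotype at E9.5. Endothelium markers (Cdh5, Kdr, Tek, Tie1 and Pecam1) summed to 124 to 177 CPM in heterozygous and 231 to 257 in homozygous libraries, and 4 of 5 (all but Pecam1) were called higher, beside 1.19% of all genes. The calls of Cdh5, Kdr and Tek were kept in 6 of 6 fits without 1 library and that of Tie1 in 4, and Kdr and Tie1 were each called in 6 of 8 alternatives. Pharyngeal endoderm markers (Pax1, Foxe1, Hhex, Foxa1 and Nkx2-1), of a tissue known to express Tbx1, summed to 7.89 to 18.5 against 21.7 to 25.7 CPM, with 5 of 5 above 0 and Hhex called. Head ectoderm and epithelium markers (Epcam, Cdh1, Krt8, Krt18 and Trp63) summed to 272 to 316 against 322 to 401 CPM, with 4 of 5 above 0 and Epcam called. Of all genes 49.2% were above 0 and 1.19% were called higher at E9.5. Hhex was called in 1 and Epcam in 2 of the 6 fits without 1 library, and in 6 and 5 of the 8 alternatives.

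Cranial ganglion neurons, in part derived from placodes, had summed marker levels (Pou4f1, Neurod1, Neurog1, Neurog2, Prrxl1, Isl1 and Elavl4) of 72.3 to 82.5 against 70.5 to 76.05 CPM at E9.5, which overlapped. Of the 6 tested, 2 were above 0, beside 49.2% of all genes. Pou4f1, a factor of sensory neurons, fell by 0.95 ± 0.17 (adjusted p = 0.0107, edgeR), where 0.702% of all genes were called lower. The Pou4f1 call was kept in 7 of 8 alternatives and in 4 of 6 fits without 1 library. Averaged over the stages 3 of the 6 were above 0, with a median of −0.023. Of all genes 49.5% were above 0 on average, and 1.14% were called lower. Elavl4, a neuronal RNA-binding protein, then fell by 0.42 ± 0.10 (adjusted p = 0.0302, edgeR), a call kept in 5 of 12 such fits, while Isl1 rose as given above, a call kept in all 12. Heart muscle sums were 516 to 601 against 563 to 732 CPM at E9.5. At both stages 5 of 5 were above 0, beside 49% of all genes at E9.0 and 49.2% at E9.5. EdgeR called 0 of the 5 at either stage, beside 0.587% and 1.89% of all genes.

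At E9.0 the sums were 176 to 196 and 216 to 226 CPM for endothelium, 18.9 to 22.7 and 19.5 to 25.8 for pharyngeal endoderm, and 293 to 350 and 368 to 392 for head ectoderm. Endothelium and head ectoderm thus did not overlap between genotypes at either stage, and pharyngeal endoderm overlapped at E9.0. Cranial ganglion sums were 32.4 to 36.7 and 35.04 to 39.9 CPM, and heart muscle sums 15.2 to 56.8 and 30.5 to 81.2. Of 6 neural crest markers reported, Tfap2b fell at E9.0, by 0.78 ± 0.10 (adjusted p = 0.00077, edgeR), where 0.155% of all genes were called lower. The Tfap2b call was kept in 7 of 8 alternatives. The E9.0 sum of the 6 crest markers was 282 to 289 CPM in heterozygous and 238 to 261 in homozygous libraries, lower without overlap. At E9.5 2 of the 6 were above 0, Ednrb at 0.16 and Ets1 at 0.40, and Erbb3 was at −0.10, none of these 3 called. Sox10, Foxd3 and Tfap2b fell by 1.14, 1.80 and 1.15 (adjusted p = 0.0148, 0.0148 and 1.99e-05, edgeR). Of all genes 0.702% were called lower at E9.5, and 49.2% were above 0. The calls of Sox10 and Foxd3 were each kept in 4 of 6 fits without 1 library, and that of Foxd3 in 7 of 8 alternatives. The E9.5 sum was 171 to 205 CPM in heterozygous and 185 to 210.2 in homozygous libraries. No gene of these 6 lists was at 0 in all 3 libraries of a group, while Prrxl1 and Nppa were each at 0 in 2 of the 6 E9.0 libraries. Heterozygous E9.5 replicate 2 had the lowest endothelium, pharyngeal endoderm and crest sums of its group, and also its lowest Tbx1, Eya1, Tcf21 and Msc. It had the highest cranial ganglion (82.5 CPM), heart muscle (600.5) and otic epithelium sums of its group. Otic markers (Oc90, Hmx3, Lmx1a and Pax8), of a placode derivative, summed to 26.9 CPM in it and to 13.9 and 17.4 in heterozygous E9.5 replicates 1 and 3, against 17.1 to 18.2 in homozygous E9.5 libraries. At E9.0 they summed to 25.9 to 27.8 CPM in heterozygous and 22.2 to 26.7 in homozygous libraries. Without heterozygous E9.5 replicate 2 Tbx1 rose by 0.90 (adjusted p = 0.00298, edgeR), while Tcf21 was 0.41, Eya1 0.22 and Msc 0.39 (adjusted p = 0.428, 0.239 and 0.689). The part of these tissues in the members' differences was not tested.

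**Figure D5:**
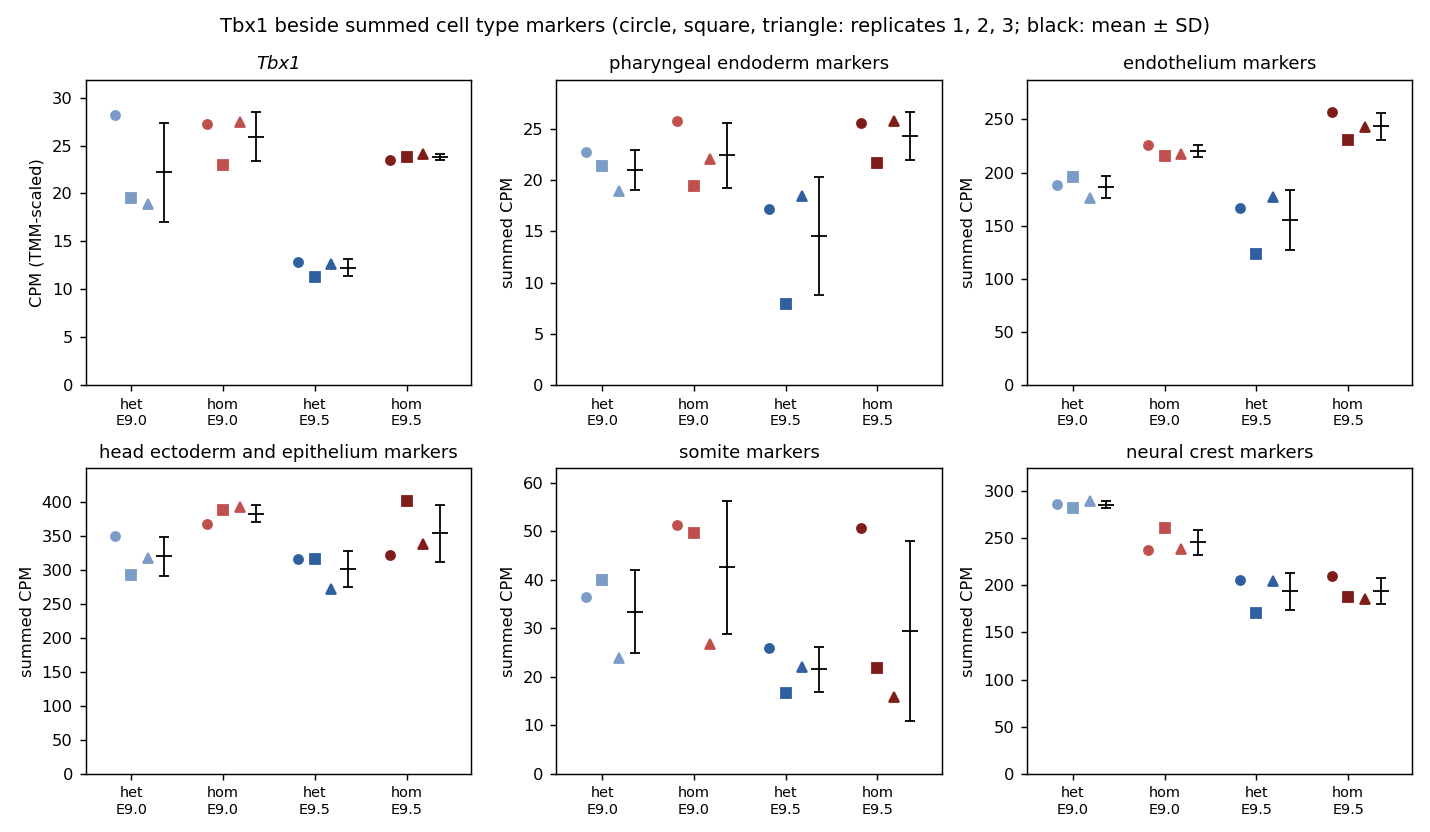
Tbx1 (TMM-scaled CPM) and the summed CPM of 5 marker lists in the 12 libraries, with the mean ± SD of 3 libraries in black. The somite list (Tcf15, Meox1, Uncx and Pax1) shares Pax1 with the pharyngeal endoderm list. Its sums were 23.8 to 40.0 CPM in heterozygous and 26.8 to 51.2 in homozygous E9.0 libraries. At E9.5 they were 16.7 to 25.9 and 15.9 to 50.7 CPM, the highest being homozygous replicate 1. At E9.5 Tbx1, pharyngeal endoderm and endothelium were higher in each homozygous library than in each heterozygous one. Crest sums, of which Ets1 was the largest part, overlapped, while Sox10, Foxd3 and Tfap2b were called lower.

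The genes with the pattern most like each member over the 12 libraries were sought among 12147 genes with at least 1 CPM in every library, by Pearson r of log2 CPM. The libraries share depth, stage and genotype, so these values describe likeness and carry no p. For Tbx1 they were Tagln2 (r = 0.97), Rgs3 (0.954) and Kctd11 (0.941). For Eya1 they were Arhgef28 (0.956), Tagln2 (0.941) and the endothelium marker Cdh5 (0.938). For Foxi3 they were Ptpn14 (0.991), Nomo1 (0.981) and Hsp90ab1 (0.975), and for Six4 Eml3 (0.963), Chrna7 (0.95) and Mfap3 (0.948).

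The likeness was weaker for Eya2, with Mid1ip1 (r = 0.884), Wfs1 (0.878) and Agpat3 (0.877), for Tcf21, with Gpc3 (0.903), Efna1 (0.893) and Scarf1 (0.873), and for Msc, with Ripk1 (0.907), Ppp1r13b (0.897) and Sod1 (0.875). Eya4 was most like Syne2 (0.965), Macf1 (0.961) and Kmt2c (0.959), whose exons are longer than those of 99.8%, 99.9% and 99.3% of tested genes, and the exons of Eya4 itself are longer than those of 88.3%. By Spearman rho, the same 3 genes led for Eya4, 2 of 3 for Msc, 1 of 3 for Eya2 and 0 of 3 for the other 5 members.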

How the data were processed

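The authors deposited raw counts per gene symbol for 12 libraries, as whole numbers with no normalization. The submitters' processing notes name cutadapt, STAR, featureCounts, MultiQC and mm10, while versions, annotation and strand setting are not given in the sources used here. Columns were matched to samples by the description label, and the title gave the group and replicate. In R 4.3.3, filterByExpr kept 14810 genes and left out 9611. EdgeR 4.0.16 (TMM factors, robust quasi-likelihood F test, 1 mean for each of 4 groups over all 12 libraries) gave two-sided p-values, adjusted by Benjamini-Hochberg over the 14810 genes with a threshold of 0.05. Each standard error is the log2 difference over the root of its F statistic. The common biological coefficient of variation was 8.77%, with 8 residual and 8.11 median prior degrees of freedom. Log2 CPM used a prior count of 2. Alternatives were RLE factors, total counts with and without Rn45s, DESeq2 1.42.0, limma 3.58.1 (voom), no filter, a block for the replicate number, a fit of only the compared groups, and each library left out. The fitting code was tested on simulated data.

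The members and lists were chosen with earlier results of these data known. The genes named are the members, Eftud2, pathway list genes past the threshold in a genotype comparison (up to 4 per list and comparison, by p), marker genes as the contents of their lists, and the 3 most alike genes per member. Some genes of the lists are not reported here and were left out of their counts, medians and sums. Lengths and overlaps came from GENCODE M21 (GRCm38), and upstream sequences from RefSeq (GRCm38.p6).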

Additional observations from a re-analysis of the deposited data

How the results depend on the processing

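Deviations of same-numbered libraries from their group means correlated at 0.174, 0.159 and −0.0331 at E9.0 and 0.0607, 0.0484 and 0.107 at E9.5. Differently numbered libraries correlated at −0.417 to 0.343 at E9.0 and −0.185 to 0.104 at E9.5. With 3 libraries a group, these values cannot tell whether the replicate numbers pair the libraries. With the replicate block, 69 genes were called at E9.0, 248 at E9.5 and 383 on average, and among the members it ended the average call of Tcf21 (0.55, adjusted p = 0.0613, edgeR). The causes of the shifts given here were not tested. With total counts only, 123 genes were called at E9.5 and 3325 between stages in homozygous libraries. The share of calls that were higher then went from 73.6% to 96.2% at E9.0, from 62.9% to 47.2% at E9.5, from 61.5% to 84.7% on average, and between stages from 54.4% to 96.4% (heterozygous) and from 55.3% to 87.1% (homozygous), while the median of all genes at E9.0 was 0.19 (−0.0043 with TMM factors) and that at E9.5 −0.0098 (−0.0026). DESeq2 called 216 genes at E9.0, 448 at E9.5 and 76 for the interaction, and limma-voom 51 at E9.0 and 5 for the interaction.

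Directions that turned under total counts only were the interactions of Six4 (−0.18), Eya1 (−0.037), Eya2 (−0.079), Eya4 (−0.011) and Tcf21 (−0.13), the stage differences in heterozygous libraries of Six4 (0.12), Eya1 (0.19), Tcf21 (0.31) and Msc (0.37), and in homozygous libraries those of Eya1 (0.15) and Tbx1 (0.055). Total counts without Rn45s turned the interaction of Six4 (−0.012), the heterozygous stage differences of Tcf21 (0.025) and Msc (0.096) and the homozygous one of Eya1 (0.047). Without a filter, Six4 at E9.0 (−0.016), Msc between stages in heterozygous (0.018) and Eya1 in homozygous libraries (0.017) turned. Tcf21 between stages in homozygous libraries was −0.0038 with RLE, −0.0030 with DESeq2 and −0.0074 with limma-voom. Of these, Six4 between stages in heterozygous libraries was past the threshold in the fit reported.

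Leaving out 1 library gave 38 to 86 calls at E9.0 (38 without homozygous replicate 3, 39 without heterozygous replicate 2), 133 to 252 at E9.5 (133, 136, 151 and 168 without homozygous replicates 2 and 3, heterozygous replicate 2 and homozygous replicate 1), 246 to 411 on average and 1 to 16 for the interaction. It turned Six4 at E9.0 (−0.036 to 0.033), at E9.5 (−0.010 to 0.052), on average (−0.0075 to 0.027) and in the interaction (−0.013 to 0.056), the interactions of Tcf21 (−0.10 to 0.31) and Foxi3 (−0.34 to 0.010), Tcf21 (−0.30 to 0.11) and Msc (−0.30 to 0.27) between stages in heterozygous libraries, and Eya1 (−0.045 to 0.013) and Tcf21 (−0.090 to 0.084) in homozygous ones, none of them called. The low counts of Msc, 14 to 53 per library, limit its precision.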
